A study of Mus musculus with 4 samples.

Results

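The genes described here are 9 mouse genes that act in writing, copying or removing DNA methylation. They are Uhrf1 and Uhrf2, the methyltransferase family genes Dnmt1, Dnmt3a, Dnmt3b and Dnmt3l, and the dioxygenase genes Tet1, Tet2 and Tet3. The data are a deposited list of 39231 genomic regions at which an oil control library of satellite cell DNA exceeded a tamoxifen library. The 9 genes are called members. Member regions are listed regions that overlap, by at least 1 bp, a member's RefSeq body or the 2000 bp on either side. There were 37 of them, all distinct. They lay over 8 of the 9 genes, and Dnmt3b had none.

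Satellite cells, the stem cells of skeletal muscle, came from the hindlimb muscles of mice aged 9 weeks and were cultured for 3 days. The series title and design text describe Uhrf1 loss in satellite cells. Tamoxifen-treated mice had been injected on 5 days with 150 µl of a 20 mg/ml solution to activate Cre recombinase, and control mice carry the label oil. The Cre driver, the floxed interval, the strain, the genotype of the oil mice and the number of animals per library are not given in the sources used here. Each of the 4 groups, methylated and non-methylated DNA of either treatment, held 1 library. Consequently no spread between animals was available and no test between treatments was made.

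Methylated fragments had been separated with a methyl-CpG binding kit, so a tag counts captured DNA and is not a base-level methylation call. The header of the list names its alignments only as oil and tamoxifen. Here they are read as the captured, methylated libraries. Without duplicates there were 19534328 tags from oil and 25614791 from tamoxifen, and tamoxifen tags were scaled by 0.763 for comparison. The totals were closer, at 35216008 and 36519772, with a duplicate rate of 0.45 in oil and 0.30 in tamoxifen. With 1 library each, an effect of Uhrf1 loss cannot be told apart from tamoxifen itself, the mice, the culture or the capture. The list gives only regions where oil was higher. Captured DNA also gives no expression, so the cell type could not be checked against marker transcripts.

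When DNA is copied, the new strand lacks methyl groups. Uhrf1 binds the half-methylated CpG sites and, through ubiquitin marks on histone H3, brings in Dnmt1, which copies the methylation. Dnmt3a and Dnmt3b place methylation on unmethylated sites, Dnmt3l is a cofactor of these enzymes without catalytic activity, and Tet enzymes oxidise methylcytosine on the way to its removal. Promoters rich in CpG sites are usually free of methylation in somatic cells, whereas the bodies of transcribed genes usually carry it.

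The capture used here depends on CpG sites, so the DNA before the transcription starts is shown first. RefSeq promoter windows of GRCm38.p6, the assembly underlying mm10, were matched for all 9 genes and gave 16 starts. These do not include every 5′ end. The Tet3 start (83441678) lies inside the gene, whose 5′ end is at 83457208. The first Dnmt3a start (3806980) also lies inside its gene, whose 5′ end is at 3801559. A window runs from 250 bases before a start to 50 after it. The 250 bases before 6 of the starts are printed 5′ to 3′ on the gene's strand, in lower case with each CG in capitals (the motif is CG, which reads the same on both strands). They are those of Dnmt1, whose first start lay closest to a region, of Tet1, whose single start also had one within 2000 bp, of the targeted gene Uhrf1, and of Dnmt3b, the gene without a region.
Dnmt1 first start, chr9:20959889-20960138, minus strand: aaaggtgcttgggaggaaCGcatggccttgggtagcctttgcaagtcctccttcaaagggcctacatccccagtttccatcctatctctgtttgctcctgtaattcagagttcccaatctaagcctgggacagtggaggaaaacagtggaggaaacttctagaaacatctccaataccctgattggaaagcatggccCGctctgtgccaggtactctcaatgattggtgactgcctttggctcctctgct
Dnmt1 second start, chr9:20952980-20953229, minus strand: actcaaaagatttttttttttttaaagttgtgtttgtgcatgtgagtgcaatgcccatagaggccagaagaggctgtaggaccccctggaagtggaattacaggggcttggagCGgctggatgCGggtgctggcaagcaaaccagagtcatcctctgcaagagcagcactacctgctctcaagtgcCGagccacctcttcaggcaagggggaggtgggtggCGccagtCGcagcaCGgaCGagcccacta
Tet1 start, chr10:62887325-62887574, minus strand: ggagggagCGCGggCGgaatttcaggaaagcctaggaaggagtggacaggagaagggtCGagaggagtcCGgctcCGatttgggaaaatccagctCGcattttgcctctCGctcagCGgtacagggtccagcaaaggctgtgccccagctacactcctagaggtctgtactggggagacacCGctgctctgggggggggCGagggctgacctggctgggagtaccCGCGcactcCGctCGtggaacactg
Uhrf1 first start, chr17:56303087-56303336, plus strand: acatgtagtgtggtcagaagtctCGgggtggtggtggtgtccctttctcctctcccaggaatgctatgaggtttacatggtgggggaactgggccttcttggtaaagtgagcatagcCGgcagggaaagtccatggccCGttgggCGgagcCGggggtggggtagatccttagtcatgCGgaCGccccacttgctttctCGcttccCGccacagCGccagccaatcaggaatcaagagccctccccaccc
Uhrf1 second start, chr17:56304063-56304312, plus strand: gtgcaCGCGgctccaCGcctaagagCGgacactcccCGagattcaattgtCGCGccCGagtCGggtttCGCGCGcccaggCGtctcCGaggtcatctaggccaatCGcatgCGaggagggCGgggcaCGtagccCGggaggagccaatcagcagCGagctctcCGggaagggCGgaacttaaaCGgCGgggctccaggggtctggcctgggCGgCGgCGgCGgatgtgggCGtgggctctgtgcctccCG
Dnmt3b start, chr2:153649199-153649448, plus strand: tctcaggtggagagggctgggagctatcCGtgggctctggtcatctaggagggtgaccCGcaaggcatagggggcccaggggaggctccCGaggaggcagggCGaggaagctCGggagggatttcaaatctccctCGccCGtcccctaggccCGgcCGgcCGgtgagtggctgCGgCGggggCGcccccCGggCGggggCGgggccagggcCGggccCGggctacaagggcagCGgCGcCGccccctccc

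These stretches differ widely in CpG content. The first start of Dnmt1 is preceded by 2 CpG sites in 250 bases and its second start by 7. The third, at position 20952623, has 26. The 250 bases before the Tet1 start hold 15 CpG sites, those before the Uhrf1 starts hold 10 and 30, and those before Dnmt3b hold 21. Tet2 has the most, with 51, and the starts of Dnmt3l have 5, 4 and 3. Over the 16 starts the median was 16 CpG sites, against 6 over all 32851 windows of the table. Of the 16, 10 had 15 or more, against 27.3% of all windows. The 16 are not independent: Dnmt1, Dnmt3a and Dnmt3l have 3 starts each, and the windows of the first 2 Dnmt3a starts overlap.

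None of the 16 promoter windows overlapped a listed region. This was also rare in the genome, where 1.28% of windows did. The share depended on CpG content, with 0.617% of windows that hold under 5 CpG sites before the start, 3.29% of those with 5 to 14 and 0.256% of those with 15 or more. A region came within 1000 bp of 1 of the 16 starts, the first of Dnmt1, against 4.38% of starts in the table. Within 2000 bp there were 3 starts (18.8%, against 8.5% in the table), adding the single Tet1 start and the second Dnmt3l start. The other distances ranged from 2333 bp at the last Dnmt3l start to 22501 bp at the first Dnmt3a start. A window without a region may be unmethylated, unchanged, higher in tamoxifen or thinly covered, and the list does not tell these apart.

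**Figure D1:**
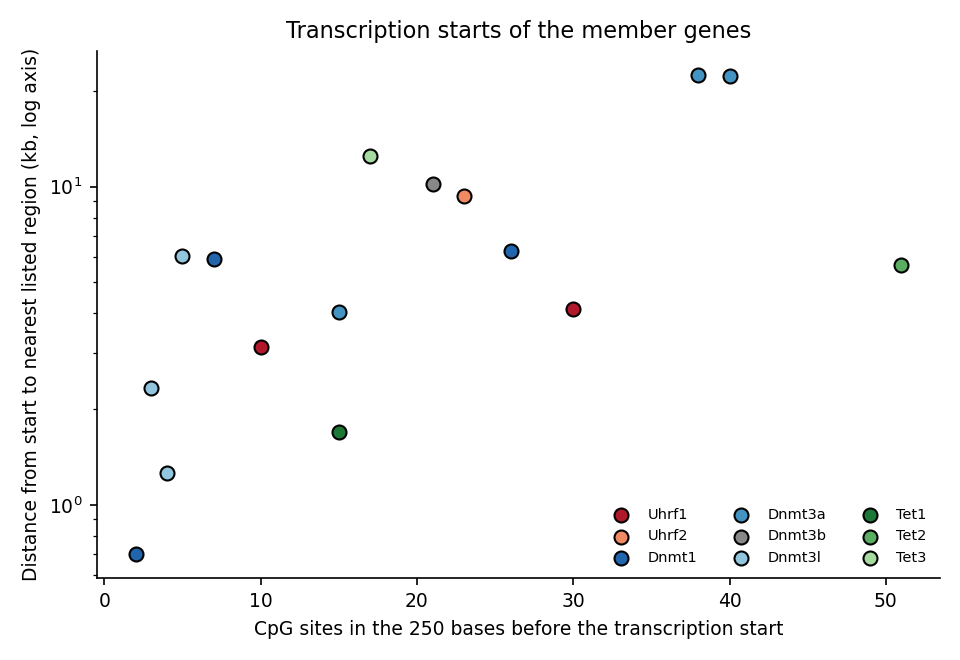
Each point is one of the 16 transcription starts of the member genes that have a promoter window. The x axis gives the number of CpG sites in the 250 bases before it. The y axis, on a log scale, gives the distance to the nearest listed region in kb. The first Dnmt1 start, with 2 CpG sites, lies 0.701 kb from a region, and the first 2 Dnmt3a starts, with 38 and 40, lie more than 22 kb from one.

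Regions were found over 8 of 9 member genes (88.9%), against a background of 45.2% of 21887 protein-coding genes. Long genes carry regions more often, and the members are long, with a median of 63.3 kb against 17.2 kb. Genes of like length were those in the same of 10 equal groups by length. Their share with a region ran from 47.7% for the shortest members, Uhrf1 and Dnmt3l, to 85.4% for Dnmt3a. The group of Dnmt3a runs from 108.5 to 2390 kb, and Dnmt3a is near its short edge. With only regions past a q limit of 1e-10, the same 8 genes kept a region, against 41.4% of protein-coding genes. Near a gene end (within 2000 bp of it), 3 members had a region, Dnmt1, Dnmt3a and Tet1, against 18.4% of protein-coding genes.

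At the 37 regions together, the oil library had 23 to 145 tags over the summit, the point of highest oil signal, and the tamoxifen library 3 to 43. The tags of the tamoxifen library did not exceed those of the oil library at any of them. The fold, here always the authors' ratio of oil to scaled tamoxifen signal with 1 added to each, had a median of 5.10 (range 2.66 to 10.22), beside 4.61 over all regions. It lay above the median of all regions in 25 and below it in 12. After scaling, the median share of oil tags kept in tamoxifen was 18.0%, beside 20.1% over all regions (quartiles 15.3% and 25.9%). A fold of 8 or more was reached by 5 member regions (13.5%), against 6.87% of all regions. Exact 95% limits of the ratio of oil to scaled tamoxifen tags lay above 1 in all 37. These limits cover counting error only, and because every region passed the authors' limit and was read at its oil maximum, limits above 1 carry no independent support.

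**Figure D2:**
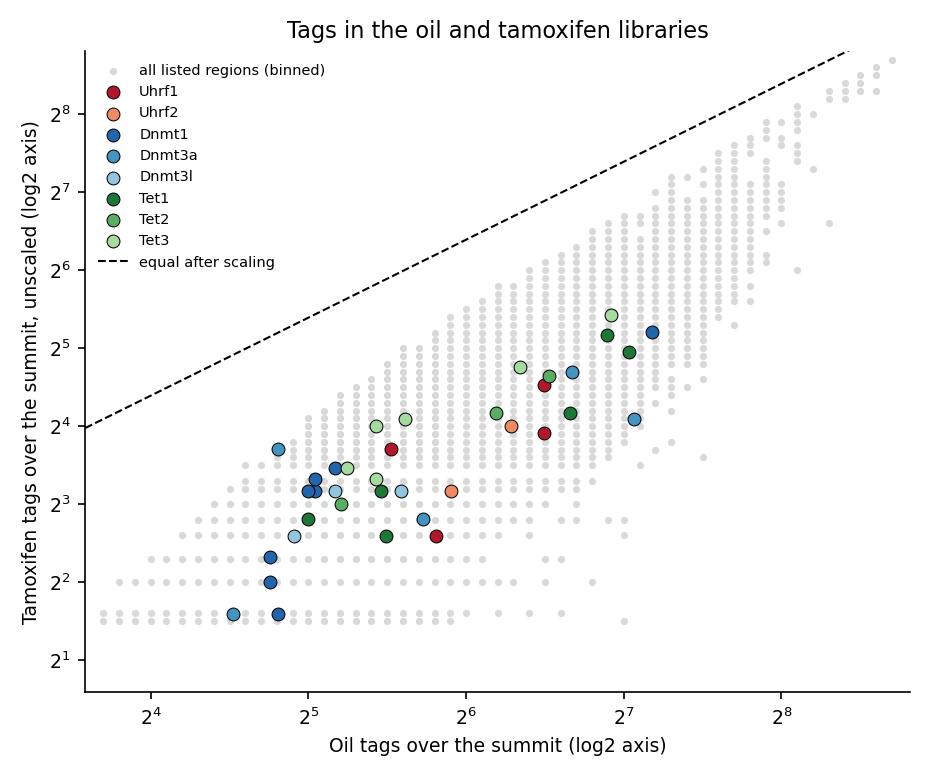
Each coloured point is a region over a member gene, with oil tags on the x axis and unscaled tamoxifen tags on the y axis, both log2 axes. Grey points are bins of all 39231 regions (the lowest row holds 980 set by the genome mean), and the dashed line marks equal signal after scaling. All 37 member regions lie below the line, within the cloud of all regions.

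Uhrf1, the gene targeted for deletion, had 4 regions in a body of 20.2 kb on chromosome 17 (56303337 to 56323486, plus strand). From 5′ to 3′, the first had 56 oil tags and 6 tamoxifen tags (chr17:56309967-56310243), for a fold of 10.22. The second had 90 and 23 tags (chr17:56313618-56313876) and a fold of 4.91. The third had 90 and 15 (chr17:56316656-56316918), a fold of 7.32, and the fourth 46 and 13 (chr17:56319005-56319224), a fold of 4.31. All 4 lay between 6.77 and 15.8 kb from the 5′ end, none near either end. The first fold was the highest of all 37 regions, and only 8.17% of its oil tags were kept, but its limits (5.28 to 34.8 for the tag ratio) overlapped those of the other 3 regions. Tamoxifen tags were present at all 4, so none of these sites was missing altogether from the tamoxifen library. Whether fewer copies of the gene or less methylation gave fewer tags cannot be told apart, since the deleted interval is not known here.

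Regions were dense in Uhrf1, at 16.6 per 100 kb of gene and flanks. Of the 2188 protein-coding genes of like length, 96.6% had fewer regions, and their median was 0. A further region lay just outside the 2000 bp, 3141 bp before the Uhrf1 start (chr17:56299912-56300196), with a fold of 4.20 from 64 oil tags and 19 tamoxifen tags. The 2 starts of the gene, printed above, had no region between them or within 3 kb.

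Uhrf2, the paralog of Uhrf1, whose product binds modified CpG sites but does not replace Uhrf1 in maintenance, had 2 regions in 63.3 kb of chromosome 19 (30030430 to 30093726, plus strand). One lay 9.54 kb from the 5′ end (chr19:30039839-30040094), with a fold of 5.98 from 78 oil tags and 16 tamoxifen tags. The other lay 40.0 kb in (chr19:30070312-30070560), with 60 and 9 tags and a fold of 7.76. Both folds were above the median of all regions. The count was ordinary for the gene's length: the median of its length group was 2, and 47.3% of those genes had fewer.

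Dnmt1, the maintenance methyltransferase gene, had 8 regions in 52.7 kb of chromosome 9 (20907206 to 20959888, minus strand), the most of the 9 at the authors' q limit. The best covered lay 701 bp inside the first, CpG-poor start (chr9:20958894-20959187). There the oil library had 145 tags and the tamoxifen library 37, a fold of 5.00 (limits 3.56 to 7.59, as for all limits below on the tag ratio). It stood 5915 bp before the second start and 6271 bp before the third, the CpG-rich one. No region lay between these 2 starts, and the next one downstream began 10028 bp beyond the last of them.

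The other 7 regions of Dnmt1 were thinly covered, with 27 to 36 oil tags and 3 to 11 tamoxifen tags. A group of 3 lay 17.4 to 20.0 kb from the 5′ end. From 5′ to 3′ they had 27 and 4 tags (chr9:20942371-20942595), 28 and 3 (chr9:20941333-20941543) and 33 and 9 (chr9:20939759-20939961), for folds of 6.91, 8.82 and 4.32. The limits of the middle one, 3.78 to 62.9, show how little 3 tags determine a fold. A pair at 31.1 and 33.0 kb had 36 and 11 tags (chr9:20928630-20928848) and 27 and 5 tags (chr9:20926766-20927086), with folds of 3.94 and 5.82. The last pair had 33 and 10 tags at 50.2 kb (chr9:20909491-20909795) and 32 and 9 tags across the 3′ end (chr9:20907023-20907320), with folds of 3.94 and 4.20. At a q limit of 1e-10 the count fell from 8 to 5, below the 6 of Tet1, and the 3 lost were those of 3.94, 3.94 and 4.20-fold. By number Dnmt1 exceeded 98.9% of protein-coding genes of like length, whose median was 1, and its density was 14.1 per 100 kb.

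**Figure D3:**
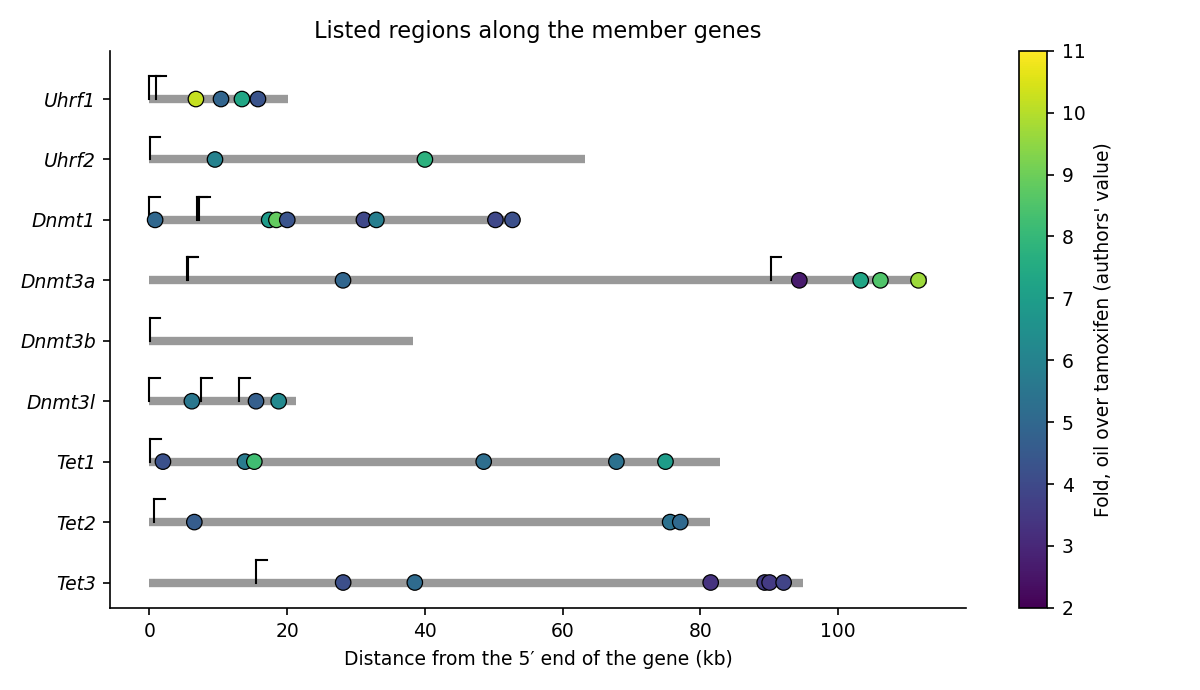
Each grey bar is a member gene drawn from its 5′ end (x axis, kb), angled marks are annotated transcription starts, and each circle is a listed region coloured by the authors' fold. Dnmt1 carries 8 regions and Dnmt3b none, and 4 of the 6 Tet3 regions and 4 of the 5 Dnmt3a regions lie toward the 3′ end.

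Of the catalytic de novo methyltransferase genes among the 9 members, Dnmt3a carried regions and Dnmt3b none. Dnmt3a had 5 regions in 112.9 kb of chromosome 12 (3801559 to 3914443, plus strand), and 3 of them were past 7-fold. The first region lay 28.1 kb from the 5′ end (chr12:3829481-3829878), with a fold of 4.95 from 102 oil tags and 26 tamoxifen tags. After it came 65.9 kb with none. The other 4 followed the internal start at position 3891744 and lay between 83.6% and 98.9% of the way along the gene.

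The first of these 4, 4032 bp beyond that start (chr12:3895776-3896053), had 28 and 13 tags and the lowest fold of all 37 regions, 2.66 (limits 1.42 to 5.94). Its summit was 1 bp from its edge. It was not past a q limit of 1e-06, nor past the authors' limit with unscaled tamoxifen tags. The next 2 had 23 and 3 tags (chr12:3904699-3904942, 7.30-fold) and 53 and 7 tags (chr12:3907498-3907864, 8.52-fold). The last, near the 3′ end (chr12:3912842-3913578), was the longest of all 37 at 737 bp, with 134 and 17 tags and a fold of 9.67 (limits 6.22 to 18.3). Across the 5 regions the tamoxifen library kept 9.68% to 35.4% of the oil tags. By count Dnmt3a was near its length group, whose median was 3.

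Dnmt3b had no region over its 38.3 kb on chromosome 2 (153649411 to 153687730, plus strand) or the 2000 bp on either side. The nearest listed regions lay 10194 bp before it (chr2:153638950-153639217, 145 oil and 42 tamoxifen tags, 4.42-fold) and 7036 bp beyond its end (chr2:153694766-153695020, 47 and 9 tags, 6.10-fold). The empty span between them was 55.5 kb. A region was carried by 63.2% of protein-coding genes of like length, so genes without one were common too. Since tags outside the list are not given, the level of captured DNA over Dnmt3b is not known for either library.

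Dnmt3l, normally expressed in germ cells and early embryos, had 3 regions in 21.3 kb of chromosome 10 (78042287 to 78063622, plus strand). The first had 30 oil and 6 tamoxifen tags (chr10:78048352-78048585), a fold of 5.56, and lay 1257 bp before the second start. The second had 36 and 9 tags (chr10:78057668-78057889), a fold of 4.71, and the third 48 and 9 (chr10:78060943-78061188), a fold of 6.23. The folds were close to each other, with limits that overlap, and oil tags were at most 48. None of these regions overlapped another RefSeq gene. Of genes of like length, 91.6% had fewer regions, with a median of 0.

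The Tet genes all carried regions, and differed in where these lay. Tet1 had 6 in 82.9 kb of chromosome 10 (62804570 to 62887469, minus strand), from 2.39% to 90.4% of the way along the gene. The longest stretch without a region was 33.0 kb. The one nearest the start lay 1694 bp inside it (chr10:62885339-62885630), with 119 oil tags, 36 tamoxifen tags and the lowest fold of the gene, 4.22. At 13.9 and 15.3 kb the tags were 44 and 9 (chr10:62873465-62873687, 5.72-fold) and 45 and 6 (chr10:62872087-62872351, 8.25-fold). These first 3 regions also lie in Gm51805, a lncRNA gene that overlaps the 5′ part of Tet1, and cannot be assigned to one gene alone. The 3 further on had 32 and 7 tags (chr10:62838794-62839062, 5.21-fold), 131 and 31 (chr10:62819471-62819863, 5.36-fold) and 101 and 18 (chr10:62812251-62812832, 6.93-fold). All 6 passed a q limit of 1e-10, and 90.3% of genes of like length had fewer.

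Tet2 had 3 regions in 81.5 kb of chromosome 3 (133463677 to 133545136, minus strand). The first, 6.54 kb from the 5′ end (chr3:133538459-133538734), had 92 oil tags and 25 tamoxifen tags, for a fold of 4.63. The others were close together near the 3′ end. They had 37 and 8 tags (chr3:133469414-133469653, 5.35-fold) and 73 and 18 tags (chr3:133467924-133468209, 5.02-fold). Between the first and the second lay 68.8 kb without a region, the longest empty stretch inside a member that carried any. The 3 folds spanned a narrow range, and the count was close to the median of 2 for its length.

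Tet3 had 6 regions in 94.8 kb of chromosome 6 (83362373 to 83457208, minus strand), with a median fold of 3.70. At 28.1 and 38.5 kb from the 5′ end the tags were 38 and 11 (chr6:83428968-83429168, 4.15-fold) and 43 and 10 (chr6:83418558-83418773, 5.10-fold). After 42.7 kb without a region came 4 in the last 14 kb of the gene. These had 43 and 16 tags (chr6:83375584-83375860, 3.33-fold), 121 and 43 (chr6:83367673-83368099, 3.61-fold), 49 and 17 (chr6:83366969-83367369, 3.58-fold) and 81 and 27 (chr6:83364833-83365433, 3.80-fold). Of the 6 folds, 5 were below the median of all regions, 4.61. Among these 5, the narrowest limits on the tag ratio were 2.59 to 5.35, at the 3.61-fold region. Those at the 3.33-fold region were 1.94 to 6.70. The tamoxifen library kept 17.7% to 28.4% of the oil tags across the 6 regions. The region of 3.33-fold was not past a q limit of 1e-10.

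Set side by side, the fold ranges of most of the 8 genes overlapped, but that of Uhrf2 lay above those of Tet2 and Tet3. The median fold per gene was 7.30 in Dnmt3a (5 regions, 2.66 to 9.67), 6.87 in Uhrf2 (2 regions, 5.98 and 7.76) and 6.11 in Uhrf1 (4 regions, 4.31 to 10.22). It was 5.56 in Dnmt3l (4.71 to 6.23), 5.54 in Tet1 (4.22 to 8.25), 5.02 in Tet2 (4.63 to 5.35), 4.66 in Dnmt1 (3.94 to 8.82) and 3.70 in Tet3 (3.33 to 5.10). Each of these ranges overlapped that of the next gene. The values are a description only, since all regions were selected by the call and read at their oil maximum, and no difference between genes was tested.

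**Figure D4:**
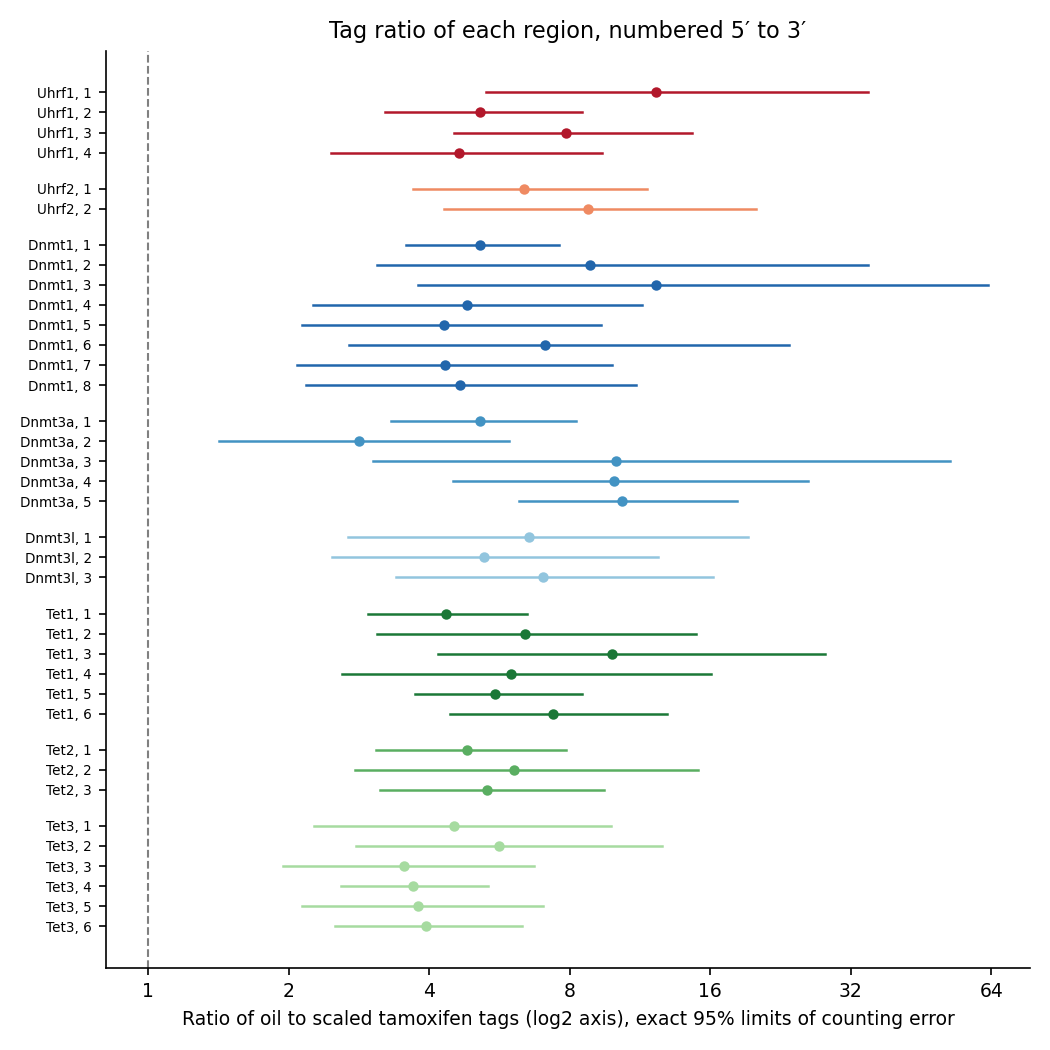
Points give the ratio of oil to scaled tamoxifen tags of each of the 37 regions, numbered 5′ to 3′ in each gene, on a log2 axis. Bars are exact 95% limits of counting error, and the dashed line marks a ratio of 1. The lower limits run from 1.42, at the weakest region of Dnmt3a, upward, and regions with 3 tamoxifen tags have the widest bars.

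The counts were also put on gene length. Per 100 kb of gene and flanks, Uhrf1 (16.6), Dnmt1 (14.1) and Dnmt3l (11.8) were densest. Tet1 (6.90), Tet3 (6.07), Dnmt3a (4.28), Tet2 (3.51) and Uhrf2 (2.97) followed. The mean over all protein-coding genes was 2.93 and the median 0. A count of regions depends on CpG density and coverage as well as on any loss, and neither was available inside the genes.

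**Figure D5:**
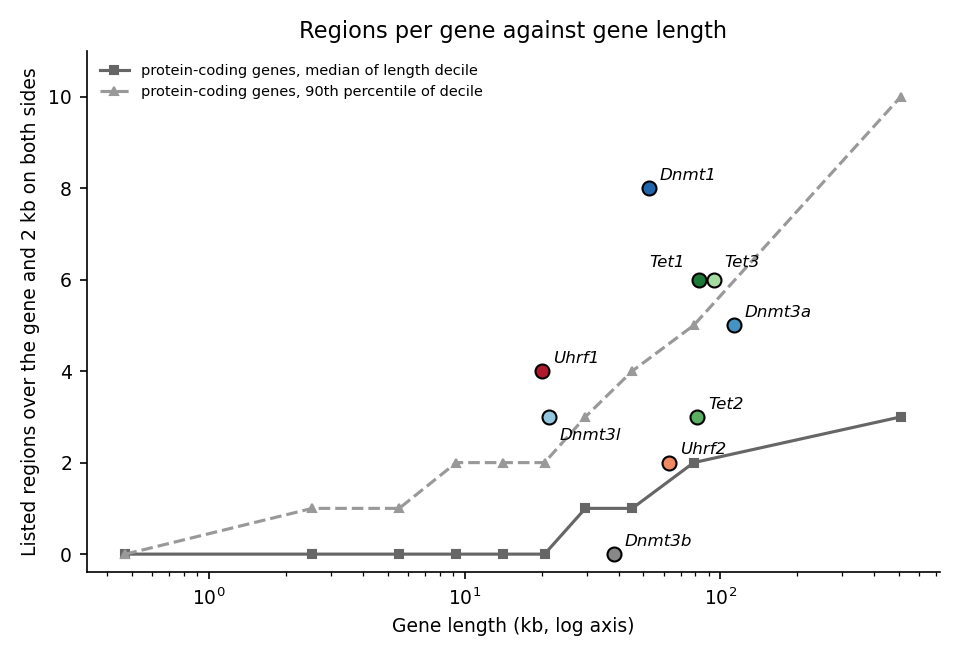
Each labelled point is a member gene, with its length in kb on a log x axis and its number of listed regions on the y axis. Grey lines join the median and the 90th percentile of protein-coding genes in 10 equal groups by length. Dnmt1 (8 regions), Tet1 (6), Tet3 (6), Uhrf1 (4) and Dnmt3l (3) exceed the 90th percentile of their own length group, and Dnmt3b, with 0, is below the median of its group.

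Genes that work with these enzymes were examined as a list of 24, and 10 (41.7%) carried a region, close to the 45.2% of all protein-coding genes. Dnmt3c, a rodent relative of Dnmt3b, is entered in the table as a pseudogene beside Dnmt3b and had none. Of 8 genes of the maintenance step 4 had a region. Among them were Ehmt2, a histone H3 lysine methyltransferase gene, with 31 oil and 5 tamoxifen tags at its stronger region (6.65-fold) and 37 and 12 at the other (3.74-fold), and Dppa3, whose product counters Uhrf1, with 105 and 26 tags near a gene end (5.09-fold). The remodeller gene Hells, the deubiquitinase gene Usp7, the replication clamp gene Pcna and the ligase gene Lig1 had none. Of 5 genes grouped under de novo methylation, Dnmt3c among them, 3 had a region. The histone H3 lysine methyltransferase gene Nsd1 had 2, with 40 against 7 tags (6.47-fold) and 64 against 23 (3.51-fold). Setd2, another such gene, had 2, with 132 against 26 tags (6.39-fold) and 63 against 25 (3.19-fold). The histone demethylase gene Kdm1b had 3, with 24 against 4 tags (6.17-fold), 63 against 17 (4.58-fold) and 94 against 36 (3.34-fold).

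Of 10 genes of demethylation and repair 3 had a region (30.0%, beside 45.2% of protein-coding genes). This was not tested and makes no allowance for gene length. Apex1, Gadd45a, Gadd45b and Gadd45g are 1.80 to 2.31 kb long, and 17.7% of protein-coding genes of like length had a region. Tdg, the glycosylase that removes the products of Tet oxidation, had the highest fold of the list, 10.65, from 34 oil and 3 tamoxifen tags (chr10:82647159-82647414, limits 4.67 to 75.6). Its other region had more oil tags, 37 against 10, and a fold of 4.41. Gadd45a had one beside a gene end, with 41 and 14 tags and a fold of 3.60, which was not past a q limit of 1e-10. The third was Ogt, which encodes the O-GlcNAc transferase that binds Tet proteins, with 79 and 18 tags and a fold of 5.43. Trdmt1, an RNA methyltransferase gene of the same enzyme fold, had no region. The list's share says nothing particular about these genes.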

How the data were processed

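The series holds 4 libraries in 4 groups, and the list compares an oil with a tamoxifen alignment. Per the file headers, MACS 2.2.6 was run by the authors at a q limit of 1e-04, with oil as treatment and tamoxifen as control, at most 1 tag per position and strand, tags of 130 bp extended to 201 bp, the larger library scaled down and no regional background. Trim Galore, HISAT2 and mm10 are named in the submitters' processing notes. The deposited pileup is a signal, the number of oil tags over the summit. The deposited fold is the ratio of oil plus 1 to scaled tamoxifen plus 1. The headings of 2 columns were lost, and they are read as the deposited -log10 p and -log10 q values.

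Tamoxifen tags were computed from pileup and fold. They came out whole, within 0.02 tags, in 97.5% of regions, including all member regions. In the other 980 the authors' value was the genome mean. Recomputing -log10 p from the tags gave the deposited values within 1.37e-05. These p and q values compare libraries, with no replicate. Counts of overlaps and tag recovery were tested on simulated data. Genes and promoter windows are RefSeq, GRCm38.p6. Exons were not analysed here, nor was the sequence of the regions. Limits are exact (Clopper-Pearson) at 95%. Python 3.11.15, pandas 2.3.3 and SciPy 1.17.1 were used.

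The member genes, the list of 24 further genes and the alternatives (q limits of 1e-06 and 1e-10, no flank or 5000 bp, summit position, unscaled tags, ratio without the added 1) were chosen with earlier results of these data known. All 9 members are named. Of the further genes, those with a region near a gene end and the 5 of highest fold are named by rule, and others, chosen after their values were seen, as examples of genes with or without a region.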

Additional observations from a re-analysis of the deposited data

How the results depend on the processing

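The 8 members with a region kept at least 1 under every alternative tried. The number of member regions was 36 at a q limit of 1e-06, 32 at 1e-10, 37 with the gene body alone, 38 with 5000 bp on both sides, 37 by summit position and 36 with unscaled tamoxifen tags. The single region lost at 1e-06 and with unscaled tags was the 2.66-fold one of Dnmt3a. The share of all listed regions that pass the same limits is not given here, so these counts do not set the member genes apart. The median fold of 5.10 was 5.54 as a ratio with nothing added, 4.0 with unscaled tags and 5.35 at a q limit of 1e-10. Of the further genes, 10 carried a region, 8 at 1e-10 and 9 with the gene body alone. Among single genes, only the count of Dnmt1 moved by over 1.5 times, from 8 to 5 at 1e-10. No paired analysis was possible because each group holds 1 library, and no library could be left out. Regions with few tamoxifen tags, such as those with 3, have wide limits on their fold.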

Other observations

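The surroundings of the member genes differed too. Within 500 kb on each side of the extended gene, the median protein-coding gene had 20 regions. Uhrf1 had 50, more than 92.4% of protein-coding genes, and Tet1 had 48 (91.0%). Dnmt1 had 36, Dnmt3a 29, Uhrf2 26, Dnmt3b 24, Tet3 24 and Dnmt3l 23. Tet2 had 9, more than only 21.8% of genes. Dnmt3b, which carried no region itself, therefore lay in surroundings with slightly more regions than the median gene, and Tet2 carried 3 regions in sparse surroundings. These values describe 1 list and were not tested.

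Member regions were of ordinary length, with a median of 269 bp against 259 bp over all regions. Of the 37, 3 were 500 bp or longer, beside 4.87% of all regions. They were the last region of Dnmt3a, the last of Tet1 and the last of Tet3, each toward the 3′ end of its gene.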
